A study of Homo sapiens with 10 samples.

Results

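The genes described here read, make, break down or carry thyroid hormone: the nuclear receptors THRA and THRB, their partners RXRA and RXRB, the deiodinases DIO1, DIO2 and DIO3, the transporter SLC16A10 and the hormone-induced transcription factor KLF9. They were found by gene symbol in the platform annotation. Of these 9 genes, 8 had a probe set, 1 each, among 21448 gene probe sets. RXRA had none under that annotation and was not analysed here. The study ran 10 whole-transcript arrays on the human neuroblastoma cell lines SK-N-AS and SK-N-FI. Treatment was BG-P1600-TAT at 30 µM over 48 h, and PBS served as its control. BG-P1600-TAT is a PEGylated compound that the series title directs at the norepinephrine transporter and at thyrointegrin αvβ3. The 4 groups were SK-N-AS treated (3 arrays, numbered 28, 29 and 30), SK-N-AS control (3 arrays, 25, 26 and 27), SK-N-FI treated (2 arrays) and SK-N-FI control (2 arrays). SK-N-AS titles name the compound BG-P-TAT, taken here as the same agent. All cells grew in medium with 10% fetal bovine serum, whose thyroid hormone content is not given in the sources used here. Whether each SK-N-AS array had a culture of its own is not stated in the labels, and p-values in that line reflect array-to-array spread, possibly technical. The SK-N-FI titles do not state it either, so the same limit holds for that line and for comparisons between lines. Each line has its own set of arrays, so line differences cannot be told apart from differences between array sets.

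Thyroid hormone acts mainly through nuclear receptors that bind DNA as heterodimers with retinoid X receptors and recruit corepressors without hormone and coactivators with it. Thyroxine, the main circulating form, is converted to the more active triiodothyronine by DIO1 and DIO2, while DIO3 inactivates both. Integrin αvβ3 carries a separate cell surface site for thyroxine and its analogues, which is the site named in the series title. In the developing nervous system the hormone and its receptors take part in the switch from proliferation to differentiation.

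The promoters of THRA and RXRB are shown because these were the members whose signal exceeded the negative controls on every array. That of DIO1, a classical triiodothyronine-induced gene, is shown as a member below that level whose window holds the receptor motif AGGTCA. Sequences are from RefSeq on GRCh38.p14 and run from 250 bases before to 50 bases after an annotated start. Capitals mark the GC box GGGCGG, the kind of site bound by KLF9 and related factors, in THRA and RXRB, and AGGTCA in DIO1, each searched on both strands.
THRA promoter (chr17:40062715-40063014, plus strand): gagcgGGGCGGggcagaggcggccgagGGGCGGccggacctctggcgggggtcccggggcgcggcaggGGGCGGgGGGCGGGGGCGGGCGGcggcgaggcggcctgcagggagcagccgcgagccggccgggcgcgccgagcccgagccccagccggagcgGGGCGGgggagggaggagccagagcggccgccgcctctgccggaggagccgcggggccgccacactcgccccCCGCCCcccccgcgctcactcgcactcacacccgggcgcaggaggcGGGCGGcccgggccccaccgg
RXRB promoter (chr6:33200616-33200915, minus strand): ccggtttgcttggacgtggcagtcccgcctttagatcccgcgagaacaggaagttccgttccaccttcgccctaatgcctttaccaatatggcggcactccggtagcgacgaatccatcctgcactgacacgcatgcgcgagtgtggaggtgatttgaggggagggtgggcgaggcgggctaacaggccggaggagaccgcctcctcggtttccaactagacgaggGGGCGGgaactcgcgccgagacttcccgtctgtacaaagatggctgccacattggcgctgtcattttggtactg
DIO1 promoter (chr1:53893937-53894236, plus strand): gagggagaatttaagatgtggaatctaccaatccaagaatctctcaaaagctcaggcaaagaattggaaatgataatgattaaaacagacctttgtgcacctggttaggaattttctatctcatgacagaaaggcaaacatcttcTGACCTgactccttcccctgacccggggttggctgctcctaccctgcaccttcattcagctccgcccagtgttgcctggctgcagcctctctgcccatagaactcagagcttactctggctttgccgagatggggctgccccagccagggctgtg
The THRA window held 9 GC boxes, some of them overlapping, and 46 CpG dinucleotides, against a median of 14 CpG over 35116 windows of all genes. This RXRB window held 1 GC box and 26 CpG, and the DIO1 window 1 AGGTCA match, in its reverse complement TGACCT, with 3 CpG and 1 GC box left in lower case. Over the 11 windows of the 8 measured members, GC boxes occurred in 7 and AGGTCA in 2, those of DIO1 and SLC16A10. Of all windows, 44.95% held a GC box and 13.83% held AGGTCA. CpG content did not sort the detected members from the others, as DIO3 had 28 CpG and the THRB windows 26 and 35.

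A probe set was taken as above background on an array when its log2 signal was over the 95th percentile that 612 negative control probe sets had there. That threshold lay between 6.75 and 7.23 in SK-N-AS and between 7.44 and 8.26 in SK-N-FI. Between 32.9% and 39.7% of gene probe sets exceeded it in SK-N-AS and between 38.3% and 44.3% in SK-N-FI. Array medians of the gene probe sets lay between 5.75 and 5.81 in SK-N-AS and between 6.61 and 6.62 in SK-N-FI, as if each line had been normalized by itself. Values set across lines carry that offset. The line labels were checked against 11 noradrenergic neuroblastoma markers with a probe set. Of these, 5 (HAND2, ISL1, GATA3, CHGA and ELAVL4) were above background on all 6 SK-N-AS arrays, against 30.9% of all probe sets. In SK-N-FI, 10 were above it on all 4 arrays, against 38.1%. PHOX2A, DBH, GAP43 and TH were not above it on any SK-N-AS array, and TH on no SK-N-FI array either. Of 7 mesenchymal neuroblastoma markers, 5 were above it on all SK-N-AS arrays and 3 on all SK-N-FI arrays. Between control arrays, limma called 4 of the 7 higher in SK-N-AS and 2 lower (adjusted p under 0.05). Of all probe sets, 11.5% were called higher and 47.8% lower. CD44 averaged 8.58 in control SK-N-AS and 11.28 in control SK-N-FI cells, and 9.27 and 10.26 after quantile normalization over all arrays. Of 3 thyroid follicular markers, 3 endothelial markers and 1 Schwann cell marker, none was above background on any array. Of 4 immune markers, CD3E, CD14 and CD79A were not above it on any array of either line. The remaining one, PTPRC, was above it on 5 of 6 SK-N-AS arrays and on no SK-N-FI array. The summed log2 signal of those 4 ran from 25.01 to 27.18 in SK-N-AS and from 21.04 to 24.05 in SK-N-FI. In extracts of whole cultures, fewer cells of a type and less RNA per cell cannot be told apart.

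THRA, the receptor alpha gene, and RXRB were above background on all 10 arrays, and THRB, DIO1, DIO3, SLC16A10 and KLF9 on none. DIO2 was above it on 1 array. The count of 2 of 8 members on all arrays stood beside 27.2% of all probe sets, and that of 5 of 8 on no array beside 50.2%. The same 2 members were the ones above it on all 6 SK-N-AS arrays (30.9% of all probe sets) and on all 4 SK-N-FI arrays (38.1%). Taking the 99th percentile of the negative controls, which lay between 8.72 and 10.89 in SK-N-AS and between 10.42 and 11.40 in SK-N-FI, left 0 members above it on all arrays, against 6.86% of all probe sets. A signal below background does not show that a transcript was absent.

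**Figure D1:**
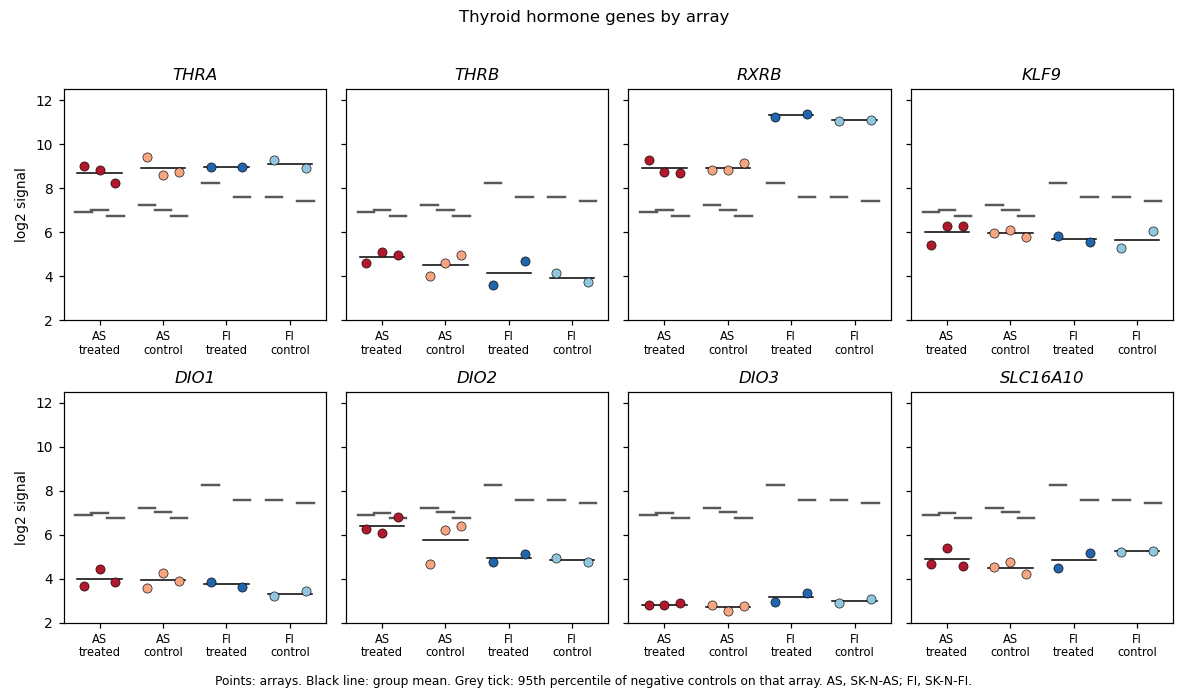
Log2 signal of the 8 measured genes on each array, by group, with the group mean as a black line and the 95th percentile of the negative controls of each array as a grey tick. THRA and RXRB lie above the grey ticks on all 10 arrays, DIO2 exceeds its tick on 1 array, and the other 5 genes lie below on every array.

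THRA encodes the receptor form that predominates in brain, and its alternatively spliced product alpha 2 does not bind hormone. The probe set does not separate those forms, and whether it separates THRA from NR1D1, which overlaps its end on the opposite strand, was not tested. Its log2 signals were 9.03, 8.83 and 8.26 in treated SK-N-AS arrays 28, 29 and 30 and 9.42, 8.61 and 8.75 in control arrays 25, 26 and 27. In SK-N-FI they were 8.97 and 8.97 in treated cells and 9.29 and 8.91 in control cells. The groups overlapped within each line, and on this scale the lines overlapped too. THRB, the receptor beta gene, had 4.62, 5.11 and 4.96 in treated and 3.99, 4.61 and 4.95 in control SK-N-AS cells. In SK-N-FI it had 3.60 and 4.68 in treated and 4.16 and 3.72 in control cells. All 10 values lay at least 1.80 below the threshold of their array.

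RXRB encodes retinoid X receptor beta, one of the retinoid X receptors that pair with the hormone receptors on most response elements. Its log2 signals were 9.29, 8.74 and 8.70 in treated and 8.82, 8.82 and 9.15 in control SK-N-AS cells. In SK-N-FI they were 11.24 and 11.39 in treated and 11.08 and 11.12 in control cells. The treated SK-N-FI arrays were both above the control arrays, the SK-N-AS groups overlapped, and all SK-N-AS values lay below all SK-N-FI values. RXRG, the gamma member of that receptor family, was not above background on any array.

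Among the deiodinases, DIO2, which activates thyroxine inside the cell, came nearest to detection. It had 6.26, 6.10 and 6.80 in treated SK-N-AS cells, of which the last was above the threshold by 0.04. Control SK-N-AS arrays 25, 26 and 27 had 4.66, 6.24 and 6.40, so that array 25 stood apart from the other 5 SK-N-AS arrays. SK-N-FI had 4.79 and 5.15 in treated and 4.97 and 4.79 in control cells, all below the threshold, by 2.44 to 3.46. DIO1, which activates and clears hormone in liver, kidney and thyroid, had 3.69, 4.43 and 3.88 in treated and 3.61, 4.26 and 3.92 in control SK-N-AS cells. In SK-N-FI, DIO1 had 3.87 and 3.64 in treated cells, both above the 3.20 and 3.47 of control cells. DIO3, the inactivating enzyme, ranged from 2.54 to 2.89 in SK-N-AS and from 2.93 to 3.36 in SK-N-FI. Among the gene probe sets of its array, DIO3 had rank percentiles between 0.671 and 7.05.

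SLC16A10 encodes a carrier of aromatic amino acids and thyroid hormone. Its signals were 4.68, 5.42 and 4.60 in treated and 4.55, 4.76 and 4.22 in control SK-N-AS cells. In SK-N-FI they were 4.51 and 5.19 in treated cells, both below the 5.24 and 5.26 of control cells. KLF9, induced by triiodothyronine and by glucocorticoids in neural cells, had 5.42, 6.30 and 6.30 in treated and 5.98, 6.12 and 5.79 in control SK-N-AS cells. In SK-N-FI, KLF9 had 5.85 and 5.54 in treated and 5.27 and 6.07 in control cells. KLF9 groups overlapped in both lines, and no KLF9 value reached the threshold of its array.

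The first comparison asked whether the compound changed these genes within each line. No member was called in either line. In SK-N-AS the log2 differences, treated minus control, ranged from -0.22 for THRA to 0.62 for DIO2, with 6 of 8 means higher in treated cells. In SK-N-FI they ranged from -0.40 for SLC16A10 to 0.42 for DIO1, with 6 of 8 means higher. These counts have no share over all probe sets beside them, and 5 of the 8 members were below background on every array. The detected genes THRA and RXRB differed by -0.22 (95% interval -0.88 to 0.44) and -0.02 (-0.55 to 0.51) in SK-N-AS. In SK-N-FI, THRA differed by -0.13 (-0.67 to 0.40) and RXRB by 0.22 (-0.28 to 0.71). For both genes a 2-fold change lay outside these intervals in both lines.

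Limma called 0 of 8 members at an adjusted p under 0.05 in SK-N-AS and 0 of 8 in SK-N-FI, where it called 0% of 21448 probe sets in each line. No member had an unadjusted p under 0.05, and 2.6% of all probe sets did in SK-N-AS and 2.85% in SK-N-FI. In SK-N-AS, treated arrays stood wholly above or below control arrays for 0 of 8 members, against 7.31% of all probe sets. In SK-N-FI they did not overlap for RXRB, DIO1 and SLC16A10, 3 of 8 members, against 27.8% of all probe sets. The median difference of the members was 0.09 in SK-N-AS and 0.12 in SK-N-FI, against 0.00 and -0.01 over all probe sets. The interval lay within a 2-fold change for 5 members in SK-N-AS and 6 in SK-N-FI. For members below background it describes a signal near that of the negative controls. Leaving out 1 array turned the direction for 4 members in SK-N-AS (THRA, RXRB, DIO1 and KLF9) and 5 in SK-N-FI (THRA, THRB, DIO2, DIO3 and KLF9).

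The widest difference, that of DIO2 in SK-N-AS at 0.62 (95% interval -0.37 to 1.61, limma adjusted p = 1.00), rested on control array 25. Without that array it was 0.07, and with it and without array 27 it was 0.94. Array 25 was also the lowest of the 6 SK-N-AS arrays for THRB, at 3.99, for the integrin gene ITGAV, at 8.04, and for PTPRC, at 6.01. For THRA it was the highest of the 6, at 9.42. DIO1 was also lowest on this array, while RXRB, DIO3, SLC16A10 and KLF9 were neither highest nor lowest on it. No share of all probe sets for which this array was highest or lowest stands beside these genes. Array-wide, it had the highest negative control threshold of the 6, at 7.23. It also had the lowest share of gene probe sets above that threshold, at 32.9%. What part of the DIO2 difference this array's other features hold was not tested.

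**Figure D2:**
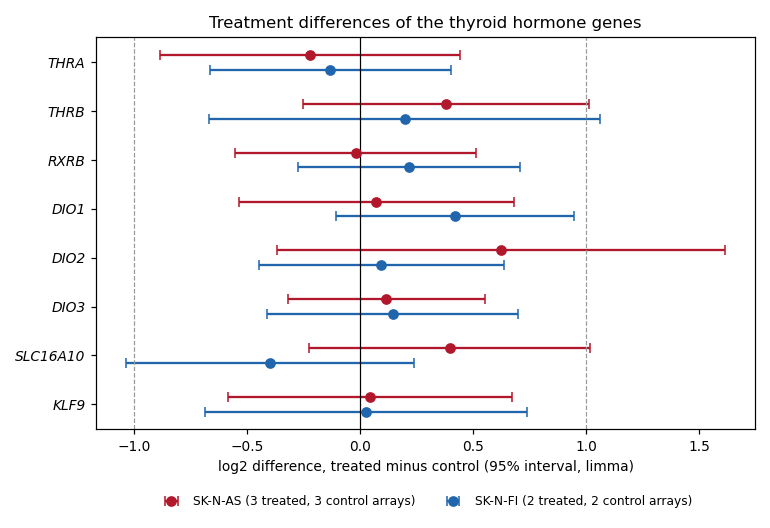
Log2 difference of treated minus control arrays for each gene in SK-N-AS (red) and SK-N-FI (blue), with 95% intervals from limma; dashed lines mark a 2-fold change. All 16 intervals include 0, and that of DIO2 in SK-N-AS is the widest, from -0.37 to 1.61.

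The treatment differences were then compared between lines. No member was called for a difference between its treatment effects (limma interaction, 0 of 8 called against 0% of all probe sets, of which 2.13% had an unadjusted p under 0.05). The largest was that of SLC16A10, at 0.79 for the SK-N-AS effect less the SK-N-FI effect (95% interval -0.14 to 1.72, limma adjusted p = 1.00). Its log2 difference was 0.40 in SK-N-AS and -0.40 in SK-N-FI, with all 10 signals below background. Without SK-N-FI treated array 1 the SK-N-FI value was -0.060, without SK-N-AS treated array 29 the SK-N-AS value was 0.13, and the difference between effects ran from 0.46 to 1.13 over arrays left out in turn. For THRA and RXRB the differences between effects were -0.09 (-1.01 to 0.83) and -0.24 (-0.97 to 0.50).

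The lines were compared on 2 scales, the deposited values and values quantile normalized over all 10 arrays, in control and in treated arrays apart. On deposited values all probe sets had a median difference, SK-N-AS minus SK-N-FI, of -0.61 in control arrays and -0.62 in treated arrays. After quantile normalization it was 0.04 and 0.03. This moved the split of calls between control arrays. Limma called 2473 probe sets higher in SK-N-AS and 10253 lower on deposited values, 5172 higher and 4827 lower after quantile normalization, and 7485 higher and 5969 lower with each array centred on its median.

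RXRB had the largest line difference of the 8 members on deposited values. It averaged 8.93 ± 0.19 in control SK-N-AS cells (SD, n = 3) and 11.10 ± 0.023 in control SK-N-FI cells (SD, n = 2). The log2 difference was -2.17 (95% interval -2.69 to -1.65, limma adjusted p = 7.18e-06). In treated arrays it was -2.41 (-2.93 to -1.88, limma adjusted p = 3.06e-06). After quantile normalization the difference was -0.45 in control arrays (limma adjusted p = 0.158), which did not pass, and -0.74 in treated arrays (limma adjusted p = 0.0303), which did. RXRB ranked between the percentiles 78.2 and 83.4 of its array in SK-N-AS and between 83.8 and 86.2 in SK-N-FI. All SK-N-AS ranks therefore lay below all SK-N-FI ranks, by a small step. Ranks within an array follow the quantile normalized values, so here and below they repeat that scale. No share over all probe sets stands beside them.

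THRA was not called between lines on deposited values, at -0.17 in control (95% interval -0.82 to 0.48) and -0.26 in treated arrays (-0.91 to 0.39). After quantile normalization it was higher in SK-N-AS, by 1.47 in control (limma adjusted p = 0.00338) and 1.36 in treated arrays (limma adjusted p = 0.00569). Its rank percentiles, which repeat the quantile scale, ran from 74.6 to 84.5 in SK-N-AS and from 67.0 to 70.1 in SK-N-FI and did not overlap. The direction for THRA therefore depended on the scale. In order of mean deposited signal its groups ran from 8.70 in treated SK-N-AS through 8.93 in control SK-N-AS and 8.97 in treated SK-N-FI to 9.10 in control SK-N-FI. No neighbours in that order differed beyond their spread. After quantile normalization the order was 8.03 ± 0.048 in treated SK-N-FI, 8.13 ± 0.25 in control SK-N-FI (SD, n = 2 each), 9.39 ± 0.48 in treated SK-N-AS and 9.61 ± 0.51 in control SK-N-AS (SD, n = 3 each), with the gap between the lines beyond the spread.

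DIO2 was at or below background in both lines, so its differences are those of signals near the negative controls and no fold is given. That signal was higher in SK-N-AS in treated arrays on both scales, by 1.42 on deposited values (95% interval 0.47 to 2.36, limma adjusted p = 0.0133) and 2.04 after quantile normalization (limma adjusted p = 0.0065). In control arrays the difference was 0.89 (-0.05 to 1.83, limma adjusted p = 0.0961) on deposited values and 1.35 (limma adjusted p = 0.0469) after quantile normalization. It was 1.44 without control array 25 (limma adjusted p = 0.000719). The treated difference was 1.24 without SK-N-FI treated array 1 (limma adjusted p = 0.0976) and then no longer passed. DIO2 ranked between percentiles 53.7 and 60.7 in treated SK-N-AS and between 33.3 and 35.7 in treated SK-N-FI. In control cells the ranks were 33.2 to 57.1 in SK-N-AS and 32.6 to 33.9 in SK-N-FI, and overlapped through array 25.

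**Figure D3:**
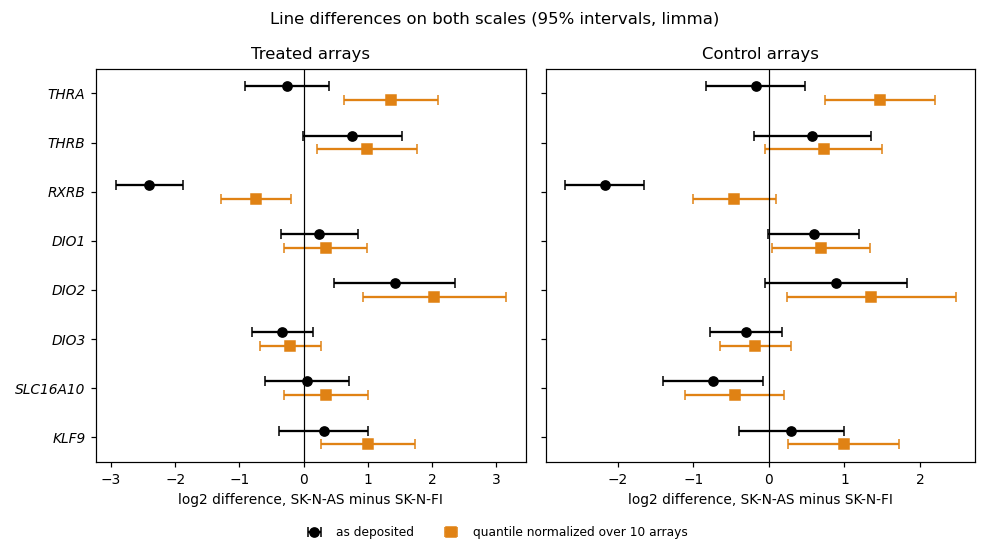
Log2 difference of SK-N-AS minus SK-N-FI for each gene in treated (left) and control arrays (right), with 95% limma intervals, on deposited values (black) and after quantile normalization over all arrays (orange). RXRB lies at -2.41 and -2.17 on deposited values and at -0.74 and -0.45 after normalization, and THRA moves from below 0 to 1.36 and 1.47.

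On deposited values, limma called 1 of 8 members between control arrays, RXRB, against 59.3% of all probe sets, and after quantile normalization 3 of 8, THRA, DIO2 and KLF9, against 46.6%. RXRB was lower in SK-N-AS, as were 47.8% of all probe sets on deposited values, where 11.5% were higher. THRA, DIO2 and KLF9 were higher, as were 24.1% after quantile normalization. No member was called the same way on both scales between control arrays, where 11.4% of all probe sets were called higher and 22.5% lower in SK-N-AS. Between treated arrays, 2 of 8 were called on deposited values, against 59%, and 5 of 8 after quantile normalization, against 45.4%. Those 5 were THRA, THRB, DIO2 and KLF9, higher in SK-N-AS as were 23.5% of all probe sets, and RXRB, lower as were 21.9%. RXRB, lower in SK-N-AS, and DIO2, higher, were called on both scales there, against 21.8% of all probe sets lower and 11.1% higher (11.2% higher on deposited values alone). Arrays of the lines did not overlap for RXRB, DIO1, DIO3 and SLC16A10 between control arrays, against 73.1% of all probe sets, and for RXRB, DIO2 and DIO3 between treated arrays, against 72.2%. KLF9 differed by 0.30 between control arrays on deposited values and by 0.99 after quantile normalization (limma adjusted p = 0.0298), below background throughout. DIO3 differed by -0.30, DIO1 by 0.60, THRB by 0.58 and SLC16A10 by -0.74 between control arrays on deposited values, and none of these passed. Without SK-N-AS control array 25, DIO1 differed by 0.76 (limma adjusted p = 0.0393), and without array 26, SLC16A10 by -0.87 (limma adjusted p = 0.043), and both then passed. In treated arrays, THRB passed without SK-N-FI treated array 2, at 1.30 (limma adjusted p = 0.0165).

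Centring each array on its median called more members. Within a comparison it adds the same amount to the line difference of every probe set. Between control arrays it called 5 of 8, against 62.7% of all probe sets. THRB (1.42, limma adjusted p = 0.00346), DIO1 (1.44, 0.000553), DIO2 (1.73, 0.00347) and KLF9 (1.14, 0.00696) were higher in SK-N-AS and RXRB (-1.33, 0.000598) was lower. Between treated arrays it called 6 of 8, against 61.6%. THRB (1.59), DIO1 (1.08), DIO2 (2.25), SLC16A10 (0.89) and KLF9 (1.15) were higher in SK-N-AS and RXRB (-1.57) was lower. RXRB and DIO2 in treated arrays were called the same way on all 3 scales, and no member was in control arrays. Of the members gained, all lay below background on every array except DIO2, which exceeded it on 1.

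Other genes of hormone transport and action came from lists of 53 genes in all, of which 44 are not members and 37 of those had a probe set. Within the lines limma called 0 of 37 in SK-N-AS and 0 of 37 in SK-N-FI, against 0% of all probe sets in each line. At an unadjusted p under 0.05 there were 0 of 37 in SK-N-AS, against 2.6% of all probe sets. In SK-N-FI there were 2 of 37, against 2.85%. The smallest p-values in SK-N-AS were those of ANGPTL4, an inhibitor of lipoprotein lipase (0.39), SLC7A8, a light chain of amino acid and thyroid hormone carriers (0.36), and USP20, a deubiquitinase of DIO2 (-0.29). In SK-N-FI they were those of SLCO1C1, the thyroxine carrier of brain capillaries (-0.71), HCN2, a pacemaker channel (-0.60), and SLC17A4, an organic anion carrier (-0.46). All 6 missed the threshold, with limma adjusted p-values of 1.00 in SK-N-AS and 1 in SK-N-FI. The surface site was also without a call. ITGAV differed by 0.30 in SK-N-AS and 0.28 in SK-N-FI, and ITGB3 was not above background on any array. The SK-N-AS arrays spread widely for ITGAV, at 9.55 ± 1.29 in treated and 9.25 ± 1.08 in control cells (SD, n = 3 each). The lack of a call for ITGAV therefore does not show a lack of change.

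Between control arrays, 5 of the 37 were called higher and 6 lower in SK-N-AS on both scales, against 11.4% and 22.5% of all probe sets. Among transporters and binding proteins, 3 of 12 were called higher on both scales and 1 lower. The lower one was SLCO1A2, another organic anion carrier, which averaged 5.40 ± 0.091 in control SK-N-AS cells (SD, n = 3), below background, and 7.80 ± 0.31 in control SK-N-FI cells (SD, n = 2), above it on 1 array. SLCO4A1, an organic anion carrier of thyroid hormone, had 7.60, 7.15 and 7.34 in control SK-N-AS cells and 3.97 and 4.31 in control SK-N-FI cells. The test passed on both scales (limma adjusted p = 1.83e-06 on deposited values and 2.38e-06 after quantile normalization). SLCO4A1 was above background on all 6 SK-N-AS arrays and on no SK-N-FI array, but the SK-N-FI threshold lay near its SK-N-AS signal. Against that threshold SLCO4A1 was at least 2.30-fold higher after quantile normalization, and no fold can be given on deposited values.

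SLC7A8 averaged 6.83 ± 0.21 in control SK-N-AS cells (SD, n = 3), where 1 of 3 arrays was above background, and 4.50 ± 0.0081 in control SK-N-FI cells (SD, n = 2), where none was. In treated arrays SLC7A8 was above background on all 3 SK-N-AS arrays, which gave at least 1.57-fold higher after quantile normalization and no fold on deposited values. SLC3A2, the heavy chain that SLC7A8 and SLC7A5 need at the membrane, was above background on all 10 arrays. It averaged 14.55 ± 0.15 in control SK-N-AS cells (SD, n = 3) and 12.64 ± 0.19 in control SK-N-FI cells (SD, n = 2). The difference was 1.90 (95% interval 1.44 to 2.36, limma adjusted p = 7.44e-06) on deposited values and 2.96 after quantile normalization. In treated arrays it was 1.74 and 2.83 on these scales. ANGPTL4 passed the test with all signals below background, so no difference is given.

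Of the receptor cofactors, 1 of 4 corepressors (GPS2) and 1 of 4 coactivators (NCOA2) were called lower in SK-N-AS on both scales, against 22.5% of all probe sets, and the corepressor subunit TBL1X was called higher after quantile normalization alone. NCOA2, a coactivator of nuclear receptors, had 6.65, 6.67 and 6.25 in control SK-N-AS cells, all below background, and 9.49 and 9.32 in control SK-N-FI cells, both above it. It was at least 5.28-fold lower in SK-N-AS on deposited values and at least 1.74-fold lower after quantile normalization (limma adjusted p = 2.67e-07 and 0.00049). GPS2, a subunit of the corepressor complex, averaged 8.86 ± 0.38 in control SK-N-AS cells (SD, n = 3) and 11.83 ± 0.22 in control SK-N-FI cells (SD, n = 2). Its difference was -2.97 on deposited values and -1.34 after quantile normalization. CPT1A, which admits fatty acids to mitochondria and is induced by triiodothyronine in liver, differed by -2.82 and -1.14 on these scales. The response genes were split. Of 13 with a probe set, members included, 2 were called higher and 3 lower in SK-N-AS on both scales. ME1, a response gene above background on all arrays, averaged 11.09 in control SK-N-AS and 10.28 in control SK-N-FI cells on deposited values. After quantile normalization ME1 averaged 11.66 and 9.25. NRGN, encoding neurogranin, passed the test with all signals below background, so no difference is given. NCOA2, GPS2 and CPT1A were called lower in SK-N-AS in treated arrays on both scales too.

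**Figure D4:**
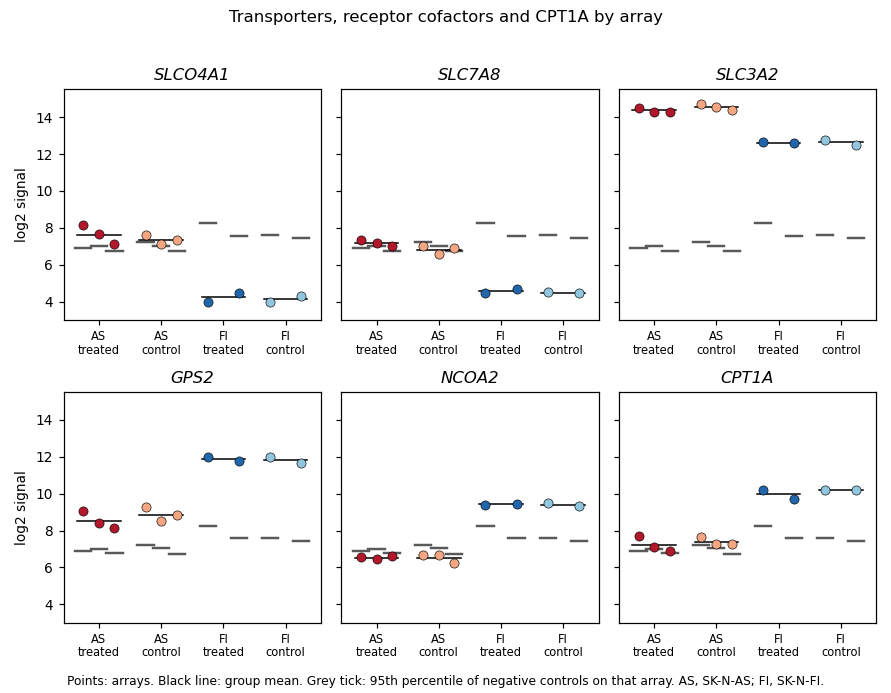
Log2 signal of 3 carriers (SLCO4A1, SLC7A8, SLC3A2), 2 receptor cofactors (GPS2, NCOA2) and CPT1A on each array, by group, with group means as black lines and the 95th percentile of the negative controls as grey ticks. The carriers lie higher in all 6 SK-N-AS arrays, and GPS2, NCOA2 and CPT1A higher in all 4 SK-N-FI arrays, on deposited values.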

How the data were processed

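Per the labels' protocols, Trizol-extracted total RNA was labelled and run on Affymetrix arrays. What was deposited is a log2 signal for each probe set. Per the submitters' processing notes, Transcriptome Analysis Console 4.0.1.36 and RMA were used, with no role given. RMA normalizes arrays by quantiles, so a change shared by most genes would be removed. The genome build of the arrays is not given in the sources used here.

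Of 24351 rows, 21448 gene probe sets were tested and 2903 controls left out. The platform annotation gave 1 symbol for 17709 probe sets, and 3739 were unnamed here. The brightest probe set stood for a gene. No arrays held identical values. Array data have no depth, and the number of arrays limits precision.

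Groups came from sample titles. Within a line, treatment was tested by limma 3.58.1 (R 4.3.3; lmFit, eBayes) without covariates. Line differences and the interaction came from 1 model of the 4 groups. Benjamini-Hochberg adjustment ran across the 21448 probe sets, with a threshold of 0.05. A bound for a gene below background in 1 line sets the bright mean against the higher of threshold and signal. The fits were tested on simulated data. SK-N-FI has 2 arrays per condition here, fewer than the series design mentions.

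Members and lists were chosen with earlier results of these data known. Besides the members, ITGAV and ITGB3, named list genes were the 3 smallest p-values per line and the 4 largest line differences each way called on both scales. For each member above background on all arrays, the 3 genes nearest in pattern were named. RXRG, SLCO1A2, TBL1X, ME1, TSHR and the noradrenergic, mesenchymal and immune markers given by name were named after their values were seen. Alternatives were eBayes with trend and robust, quantile or median scaling, testing without dim probe sets, a shared fit, a replicate block, a stricter background and leaving out each array. Each member had 1 probe set, so no other choice of probe set was possible. In SK-N-FI, differences between replicates 1 and 2 correlated at -0.17 over probe sets between the arms. The sample titles do not say whether the replicate numbers pair the arrays, and that correlation cannot settle it.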

Additional observations from a re-analysis of the deposited data

How the results depend on the processing

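No member was called for treatment or for a difference of treatment effects under any of the settings tried, 294 values in all, with a smallest limma adjusted p of 0.909. Counts of calls over all probe sets stayed at 0 in both lines and in the interaction. Between lines the totals stayed within 1.5 times. The split moved further, between control arrays from 2473 higher in SK-N-AS on deposited values to 7485 with median centring. Testing without dim probe sets called 8518 of 10253 there, against 12726 of 21448 with all. In SK-N-FI the replicate block gave 0 calls, and a crossed block, chosen after seeing the data, gave 0. A background at the 99th percentile left 0 members above it on all arrays, against 2.

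Leaving out each array turned some uncalled directions. Treatment differences in SK-N-FI then ranged from -0.32 to 0.058 for THRA, -0.35 to 0.74 for THRB, -0.085 to 0.27 for DIO2, -0.062 to 0.35 for DIO3 and -0.37 to 0.43 for KLF9. In SK-N-AS they ranged from -0.39 to 0.024 for THRA, -0.21 to 0.089 for RXRB, -0.14 to 0.24 for DIO1 and -0.11 to 0.34 for KLF9. Differences between effects ranged from -0.28 to 0.16 for THRA, -0.36 to 0.73 for THRB, -0.024 to 0.85 for DIO2, -0.24 to 0.18 for DIO3 and -0.39 to 0.41 for KLF9. SK-N-AS control minus SK-N-FI control ranged from -0.42 to 0.017 for THRA and from -0.10 to 0.70 for KLF9, and the treated line difference from -0.28 to 0.39 for SLC16A10.

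Scaling turned THRA, from -0.17 in control and -0.26 in treated arrays to 1.47 and 1.36 with quantile normalization and to 0.67 and 0.57 with each array centred on its median. Median centring also turned DIO3 (0.54 in control, 0.51 in treated arrays) and SLC16A10 in control arrays (0.10). Centring adds the same amount to the line difference of every probe set in a comparison, because the array medians of the lines differ. Why the medians differ, and why quantile normalization moved THRA further, was not tested. RXRB stayed below 0 under every setting tried, from -2.28 to -0.45 in control arrays and from -2.60 to -0.74 in treated arrays. THRB, DIO1, DIO3, SLC16A10 and KLF9, below background on all arrays, limit any statement to their signal, not their transcripts.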

Other observations

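The genes whose array pattern lay nearest to the detected members were found by the root mean square difference over 10 arrays, after centring each gene on its mean, among 17686 other named genes. Nearest to THRA were ATG9A (0.0959 log2 units), SPC24 (0.121) and POLR2L (0.121). Nearest to RXRB were DUT (0.0893), KIAA1549 (0.108) and DNAAF19 (0.115). On deposited values DUT differed by -2.25 and KIAA1549 by -2.31 in SK-N-AS minus SK-N-FI. Differences near that of RXRB follow from how these genes were picked and are no separate result. DNAAF19 exceeded the negative controls on 2 of 10 arrays.

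TSHR, the thyrotropin receptor and a thyroid follicular marker, was below background on all 10 arrays. Its treatment difference was 0.55 in SK-N-AS and -0.55 in SK-N-FI, and the difference between effects was 1.10 (95% interval 0.24 to 1.96, limma adjusted p = 1.00). That difference did not pass the test. The interval is not adjusted for the number of probe sets, of which 2.13% had an unadjusted p under 0.05 in the limma interaction. TSHR was named after its values were seen.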
